A study of Mus musculus with 22 samples.

Results

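The hedgehog and bone morphogenetic protein (BMP) genes Shh, Ptch1, Smo, Gli1, Gli2, Gli3, Hhip, Bmp4 and Bmp5 were followed across 22 mouse bladder samples. They were taken by name from the 22907 genes that the arrays measured under a known symbol, and all 9 were found. All 9 were among the 17400 genes tested, that is, genes whose signal cleared background well on 2 or more arrays. The measure throughout is RNA level on 1-colour Agilent arrays, 1 array per sample. A level is the log2 spot signal minus the 75th percentile of that array, so that 1 unit is a doubling. A level of 0 is the brightness at the 75th percentile of the spots. Levels of different genes come from different probes and are not set against each other.

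The bladders fell into 8 groups, and all were collected at 8 months of age. The 3 normal samples were wild type, with no tamoxifen and no carcinogen. The mice of the other 7 groups (19 arrays) were given BBN, a nitrosamine carcinogen of the bladder, in drinking water over 24 weeks. Krt5-Cre (2 arrays) and Upk2-Cre (2 arrays) carried a tamoxifen-inducible CreERT2, driven by the Krt5 promoter of basal or the Upk2 promoter of luminal urothelial cells, with the reporter LSL-RFP and tamoxifen. Krt5-Cre R270H (3 arrays), Krt5-Cre R172H (4 arrays), Upk2-Cre R270H (2 arrays) and Upk2-Cre R172H (3 arrays) carried the same Cre and reporter with the mutant allele Trp53R270H/+ or Trp53R172H/+, and tamoxifen (Trp53 encodes the tumour suppressor p53). Trp53 het (3 arrays) had BBN without tamoxifen; its titles read Trp53+/-, its genotype entry reads Trp53R270H/+, and no Cre is named. BBN bladders therefore differed from normal ones in genotype and, outside Trp53 het, in tamoxifen as well as in BBN, and these cannot be told apart in the comparison with normal.

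The arrays lay on 4 slides read by 2 scanners, and slide 4 held the 3 normal samples and no other, so slide and BBN cannot be told apart. Scanner 2 read the normal samples and 8 BBN arrays, and scanner 1 read 11 BBN arrays with fewer spots well above background (42.4% to 57.2%, against 56.3% to 63.2% on scanner 2). The RNA of 11 of the 22 arrays went against the sex on the label in its Xist and Y-linked genes, 3 of them normal and 8 BBN. Arrays 1 and 2 of Upk2-Cre share an animal code, as do arrays 1 and 2 of Trp53 het, although the Upk2-Cre arrays differed from each other in Xist and Y-linked signal. The normal samples are called urothelium in one label entry and whole bladder in the extraction protocol. Their luminal markers were high (mean level of 10 genes 5.89 to 6.24) and their fibroblast markers were present (mean level of 11 genes 3.53 to 4.05), all well above background on every normal array. Smooth muscle markers were low in them (mean level of 10 genes 0.51 to 1.56, against 1.03 to 5.61 on BBN arrays). Whether the tissue taken differed between normal and BBN samples was not tested, and such a difference cannot be told apart from BBN. Beyond the animal codes, the labels do not say whether replicates were separate mice, and p-values measure the spread between these samples.

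Sonic hedgehog, the product of Shh, is a secreted ligand that binds the receptor Patched, encoded by Ptch1. Binding relieves the block that Patched holds on Smoothened, the product of Smo, and the Gli transcription factors then act on their targets, among them Gli1, Ptch1 and Hhip themselves. In the mouse bladder Shh is known as a signal of basal urothelial cells to the stroma beneath, where the response is read by Gli1 and where BMP ligands, which act on the urothelium, are made.

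RNA of the ligand Shh, of the target genes Gli1 and Hhip and of the ligands Bmp4 and Bmp5 was far lower in BBN bladders than in normal ones. Between BBN and normal bladders, 9 of 9 members passed limma at a Benjamini-Hochberg adjusted p of 0.05, 7 lower and 2 higher with BBN. Among all tested genes 42.7% passed, 19% lower and 23.7% higher. The median log2 difference was -3.92 over the members and 0.13 over all tested genes. Levels of the 3 normal and the 19 BBN arrays did not overlap for 7 of the 9 members, which was so for 25.7% of all genes. Values not well above background were taken as read in both counts. Here and below, unless stated otherwise, a difference is the mean of the 7 BBN group means minus the mean of the normal arrays.

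**Figure D1:**
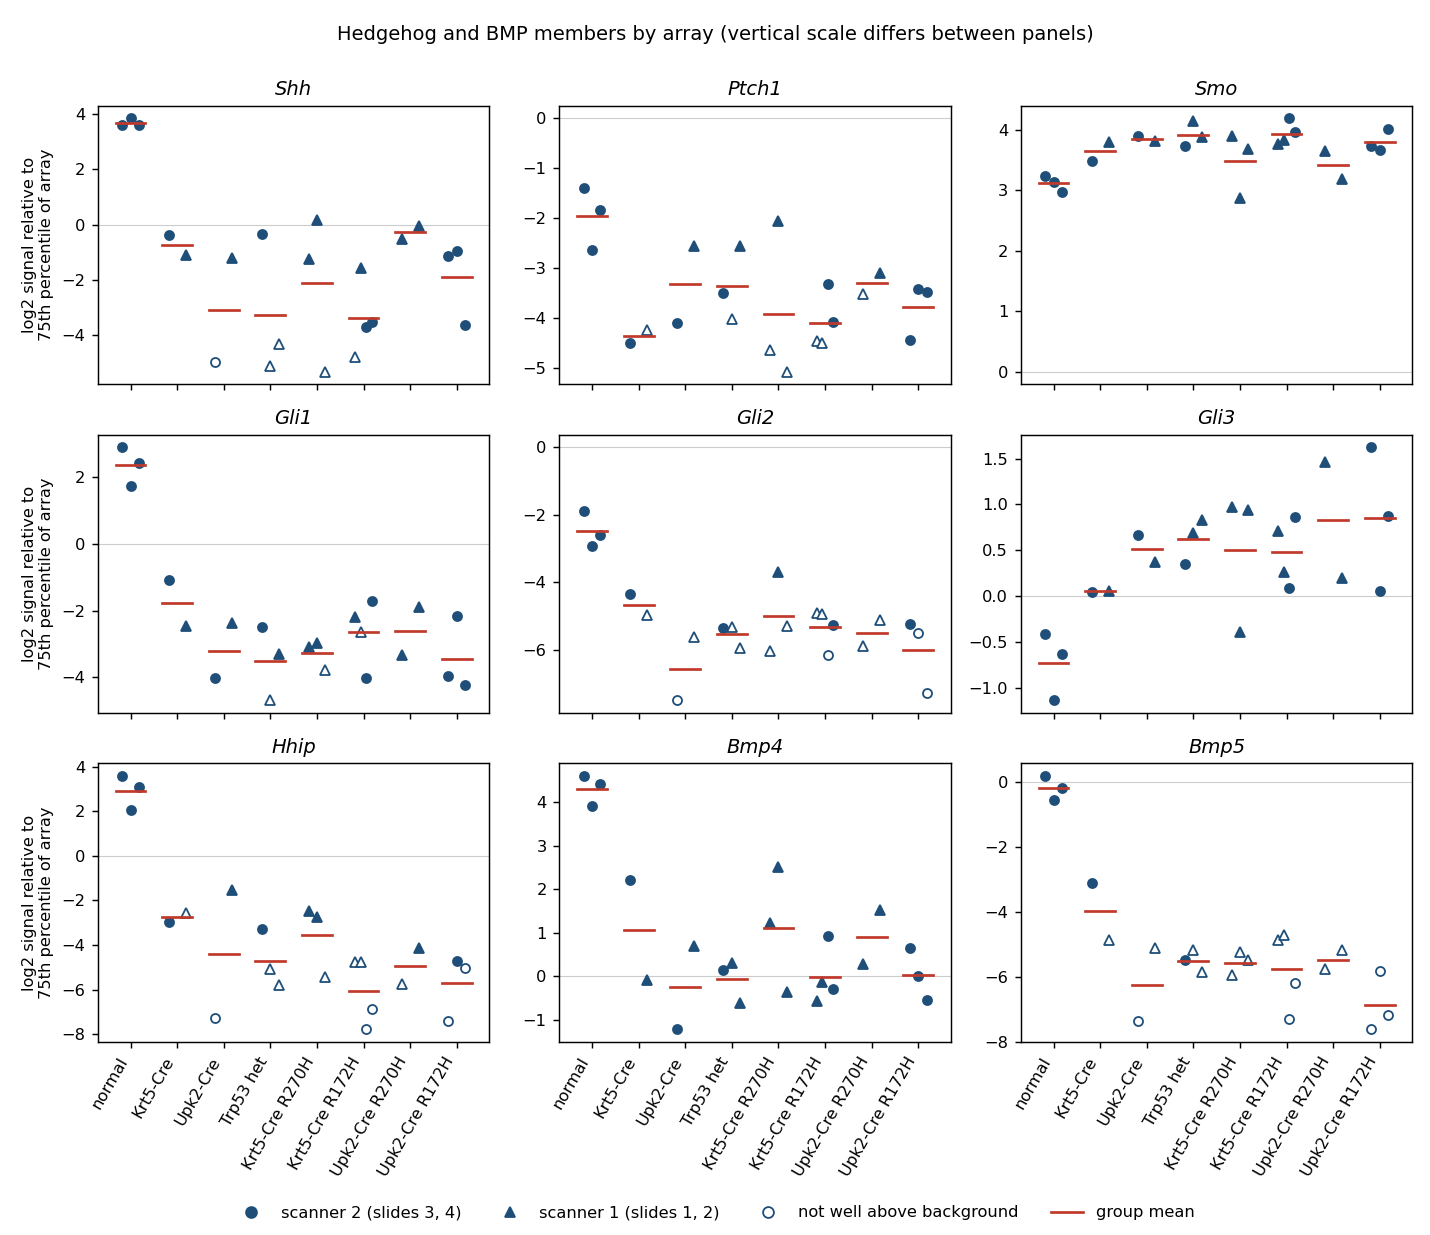
Level of each member on each array (log2 signal relative to the array's 75th percentile; vertical scales differ between panels), by group, with the group mean as a red line. Circles are scanner 2 and triangles scanner 1, and open symbols were not well above background; the 3 normal arrays stand above all BBN arrays for Shh, Gli1, Gli2, Hhip, Bmp4 and Bmp5, and below all of them for Gli3.

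Shh was at 3.61, 3.84 and 3.60 in the 3 normal bladders, within 0.24 of each other. Across the 19 BBN arrays it ran from -5.32 through a median of -1.26 to 0.18. The highest BBN array thus lay 3.42 below the lowest normal one, and Shh was well above background on 14 of the 19 BBN arrays. The difference was -5.80 (SE 1.05), a 55.7-fold lower level with BBN (limma adjusted p = 0.000417). Shh also had the widest scatter of the 9 members within BBN bladders by standard deviation, 1.96, more than 97.8% of all tested genes, against 0.14 between the normal samples. That scatter includes the BBN arrays on which Shh was not well above background, which held its lowest values. On the 14 others Shh ran from -3.71 to 0.18.

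By group, Shh stood at -0.51 and -0.06 in Upk2-Cre R270H and at -0.39 and -1.10 in Krt5-Cre. It read -1.14, -0.94 and -3.64 in Upk2-Cre R172H and -1.26, 0.18 and -5.32 in Krt5-Cre R270H. In Upk2-Cre it was -4.98 and -1.22. Upk2-Cre R270H and Krt5-Cre, with 2 arrays each, stayed near the top of the BBN range. The other groups each held a bladder far below it. Trp53 het gave -0.35, -5.11 and -4.32, and Krt5-Cre R172H gave -4.78, -1.56, -3.71 and -3.51. Of all these readings, -5.32, -4.98, -5.11, -4.32 and -4.78 were not well above background. In the order of the 8 group means, normal stood apart, and each of the other 6 pairs of neighbours overlapped.

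Smo, the signal transducer, was at 3.24, 3.13 and 2.97 in normal bladders and from 2.87 through 3.80 to 4.19 on the BBN arrays. The ranges overlapped, with 17 of 19 BBN arrays above all normal ones. Smo was 1.52-fold higher with BBN (log2 difference 0.61, SE 0.20, limma adjusted p = 0.0214). That call was lost under 8 of 37 alternatives (adjusted p up to 0.112), among them the leaving out of each normal array in turn. With any single array left out, the Smo difference lay between 0.54 and 0.67. Its standard deviation over BBN arrays, 0.31, was above that of 10.5% of tested genes only.

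Ptch1, receptor and target in one, was low everywhere. Normal bladders read -1.41, -2.64 and -1.85, and BBN arrays ran from -5.08 through -4.02 to -2.06, with 12 of 19 well above background. The groups overlapped, although 16 of 19 BBN arrays lay below all normal ones. The difference was -1.78 (SE 0.50, limma adjusted p = 0.00933). A dimmer Ptch1 probe, well above background on 2 of 3 normal and 8 of 19 BBN arrays, showed a difference of 0.06, from -4.47 to -4.42. It did not repeat the fall, but so near background it could show little of one. With the mean over probes the Ptch1 difference was -0.86 (limma adjusted p = 0.115), and without normal replicate 1 it was -1.50 (limma adjusted p = 0.0727).

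The 3 Gli genes split. Gli1, the activator whose own transcription is a readout of the pathway, was at 2.90, 1.75 and 2.43 in normal bladders. It ran from -4.69 through -2.97 to -1.07 on the BBN arrays, 16 of which measured it well above background. No BBN array came within 2.82 of the lowest normal one, and the difference was -5.28 (SE 0.55), or 38.9-fold (limma adjusted p = 2.72e-06). Gli2, the factor that mainly carries the activating signal, was at -1.88, -2.94 and -2.59 in normal bladders and from -7.49 through -5.33 to -3.69 with BBN. Its signal as read was lower on every BBN array, with a difference of -3.04 (SE 0.48, limma adjusted p = 0.000141). Only 5 of the 19 BBN arrays measured it above background. On Krt5-Cre array 2 and Krt5-Cre R172H arrays 1 and 2, the lowest signal well above background (-2.77, -2.69 and -2.75) exceeded the lowest normal Gli2 value. Those arrays cannot show Gli2 below all normal ones. With the normexp background correction the Gli2 difference was -0.78 and did not pass (limma adjusted p = 0.126).

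Gli3, known mainly as the repressor of the family, went the other way. It stood at -0.41, -1.14 and -0.63 in normal bladders and from -0.39 through 0.66 to 1.62 with BBN. Every BBN bladder was higher than every normal one, by as little as 0.02 between the nearest arrays. The difference was 1.28 (SE 0.33), or 2.43-fold higher (limma adjusted p = 0.00570). Without normal replicate 2 it was 1.07, and the adjusted p was 0.0533.

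Hhip, a membrane protein that binds hedgehog ligands and is induced by them, had the widest gap of all members. Normal bladders read 3.57, 2.05 and 3.09, and BBN arrays ran from -7.77 through -4.76 to -1.55. The gap between the nearest arrays was 3.60, and 7 of 19 BBN arrays measured Hhip above background. The Hhip difference was -7.49 (SE 0.96, limma adjusted p = 1.83e-05), and its other probe gave -8.80. In Krt5-Cre R172H none of the 4 arrays, at -4.76, -4.76, -7.77 and -6.87, was well above background. There only a bound can be given, at least 142-fold lower than normal (measured means 2.90 and -6.04, limma adjusted p = 4.65e-05). Such a bound sets the bright group's mean against the lowest signals that counted as well above background on the dim arrays.

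Bmp4, a BMP ligand of the bladder stroma, was measured well above background on all 22 arrays. It was at 4.60, 3.91 and 4.42 in normal bladders and from -1.22 through 0.14 to 2.50 with BBN. The nearest arrays were 1.41 apart. The difference was -3.92 (SE 0.55), or 15.1-fold (limma adjusted p = 4.16e-05), and the other Bmp4 probe gave -4.86. Among the BBN groups Bmp4 read 2.22 and -0.10 in Krt5-Cre, 1.21, 2.50 and -0.37 in Krt5-Cre R270H, and 0.28 and 1.52 in Upk2-Cre R270H. It read -1.22 and 0.70 in Upk2-Cre, 0.14, 0.29 and -0.61 in Trp53 het, -0.57, -0.14, 0.92 and -0.29 in Krt5-Cre R172H, and 0.64, 0.02 and -0.55 in Upk2-Cre R172H. The groups with the highest single bladders also held some of the low ones.

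Bmp5, a related ligand, was at 0.19, -0.54 and -0.17 in normal bladders. On the BBN arrays it ran from -7.61 through -5.49 to -3.09, and 2 of the 19 measured it above background, 1 of Krt5-Cre and 1 of Trp53 het. The difference was -5.45 (SE 0.52, limma adjusted p = 1.29e-06), with -3.24 at the other Bmp5 probe. In the 5 other BBN groups Bmp5 was at least 12-fold to at least 34.2-fold lower than normal, the latter in Upk2-Cre R172H, where it read -7.61, -5.82 and -7.18. Krt5-Cre read -3.09 and -4.85, the latter not well above background, and overlapped Krt5-Cre R172H, where all 4 values were not well above background.

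**Figure D2:**
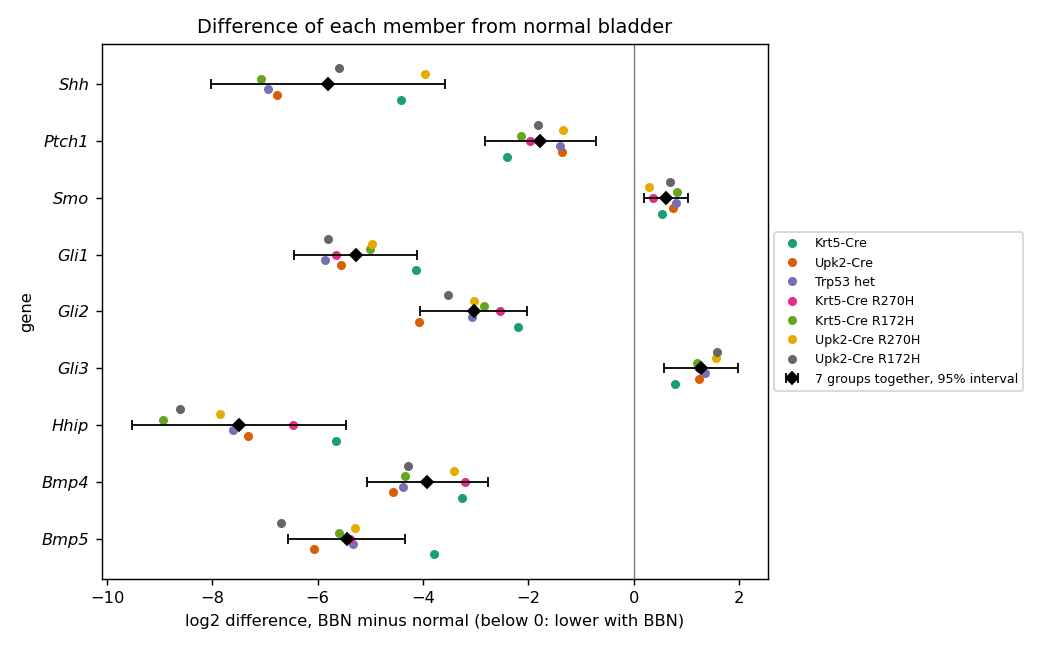
Log2 difference of each member from normal bladder, for the 7 BBN groups together (black diamonds, with 95% intervals) and for each group (coloured points; all share the 3 normal arrays). Values below 0 are lower with BBN; Shh, Ptch1, Gli1, Gli2, Hhip, Bmp4 and Bmp5 lie below 0 in all 7 groups, and Smo and Gli3 above 0. Points of groups with no array well above background (Gli2 in 2 groups, Hhip in 1, Bmp5 in 5) are fitted values that were not measured.

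Set against the same 3 normal arrays, each BBN group gave differences of the same direction, and 50 of the 63 pairs of member and group passed. Gli1 (-5.86 to -4.13), Gli2, Hhip, Bmp4 (-4.57 to -3.20) and Bmp5 passed in all 7 groups. Where at least 1 array of the BBN group was well above background, Gli2 ran from -3.52 to -2.19 in 5 groups and Hhip from -8.62 to -5.65 in 6. Bmp5 was -3.80 in Krt5-Cre and -5.33 in Trp53 het, with 1 of 2 and 1 of 3 arrays well above background. The Hhip value of -8.62 was in Upk2-Cre R172H, with 1 of 3. These fitted values of Gli2, Hhip and Bmp5 include signals not well above background and are not measured sizes. Elsewhere only bounds hold, which for Gli2 were at least 3.69-fold lower in Upk2-Cre and at least 3.01-fold lower in Upk2-Cre R270H. Shh passed in 5, with -4.42 in Krt5-Cre (limma adjusted p = 0.0563) and -3.97 in Upk2-Cre R270H (limma adjusted p = 0.0797) outside. Gli3 passed in 5 groups (0.78 to 1.58), Ptch1 in 3 (-2.41 to -1.35) and Smo in 2 (0.30 to 0.82). By group, 6 members passed in Krt5-Cre beside 17.5% of all tested genes, 6 in Upk2-Cre beside 28.1%, and 6 in Upk2-Cre R270H beside 19.3%. In Upk2-Cre R172H 7 passed beside 24.4%, in Krt5-Cre R270H 8 beside 30.1%, and in Krt5-Cre R172H 9 beside 32.5%. Trp53 het, the BBN group without tamoxifen, had 8 beside 31%, all except Ptch1.

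Within the scanner that read the normal samples, the differences kept their direction. Neither R270H group was read on it, and Krt5-Cre, Upk2-Cre and Trp53 het were there by array 1 alone. Over the BBN groups among its 8 BBN arrays, log2 differences were -5.93 for Shh, -5.14 for Gli1 and -4.02 for Bmp4. Hhip was -8.21, Bmp5 -5.73, Gli2 -3.31 and Ptch1 -1.95, and Gli3 and Smo were higher by 1.20 and 0.69. The values of Hhip, Bmp5 and Gli2 include signals not well above background and are not measured sizes.

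Cell type markers differed between BBN and normal bladders as well. Of the markers, 63.6% of fibroblast, 75% of basal, 90% of smooth muscle and 90% of luminal genes passed, beside 42.7% of all genes. Of 11 tested fibroblast markers 6 fell and 1 rose, and their mean level was 0.73 to 4.10 on BBN arrays against 3.53 to 4.05 in normal bladders. Among them Pdgfra, a receptor of stromal fibroblasts, fell by 2.80 and Dcn, a matrix proteoglycan, by 2.28, whereas S100a4 was the 1 that rose, by 2.14. Smooth muscle markers went up, 9 of 10, with mean levels of 1.03 to 5.61 with BBN and 0.51 to 1.56 in normal bladders. Of 8 basal urothelial markers 6 rose (4.33 to 6.49 against 2.96 to 3.27), and 9 of 10 luminal markers fell (-0.21 to 3.19 against 5.89 to 6.24). Of 10 squamous markers 9 rose and 1 fell (mean level 0.10 to 6.25 against -3.99 to -3.70), with a median difference of 8.46. All 6 proliferation genes rose (0.42 to 3.0 against -2.87 to -2.69, median 4.18). Of the leukocyte markers 3 of 8 rose (37.5%), and 1 of 6 endothelial markers fell (16.7%), both shares below that of all genes. The part of these shifts in the members' differences was not tested. In tissue of several cell types, fewer cells of a type and less RNA per cell cannot be told apart.

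Other genes of the hedgehog pathway were mixed. Of 19 tested, 4 rose and 5 fell with BBN, 47.4% in all beside 42.7% of all genes, with a median of -0.16. Scube2, a secreted protein that helps release hedgehog ligands from cells, fell by 5.75 (3.69 ± 0.28 in normal, SD, n = 3; limma adjusted p = 2.81e-06). Its relatives Scube1 and Scube3 fell by 2.68 and 2.97, the latter measured on no BBN array and at least 2.03-fold lower. The co-receptors parted: Gas1 rose by 2.13 (limma adjusted p = 5.16e-06), and Boc fell by 1.27. Gpr161, a receptor of the primary cilium that restrains the pathway, passed as higher with BBN (limma adjusted p = 0.000145). It was not measured in normal bladders and only 4 of 19 BBN arrays were above background, so no size is given. Sufu, the cytoplasmic inhibitor of Gli proteins, differed by -0.17 and did not pass (limma adjusted p = 0.574).

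Among genes known to answer hedgehog signals in stroma, 1 of 11 tested rose and 5 fell, with a median of -1.38. Of these 54.5% passed, beside 42.7% of all genes. The forkhead factors Foxl1, Foxf1 and Foxf2 fell by 4.80, 3.16 and 2.39. Wnt2, a Wnt ligand, fell by 4.18, from 4.08 ± 0.21 (SD, n = 3) to -0.10 (limma adjusted p = 1.54e-05), and Hsd11b1, which activates glucocorticoids, fell by 4.07. Ccnd1, a cyclin of the cell cycle, rose by 1.0. Fibroblast markers fell beside them, as given above.

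**Figure D3:**
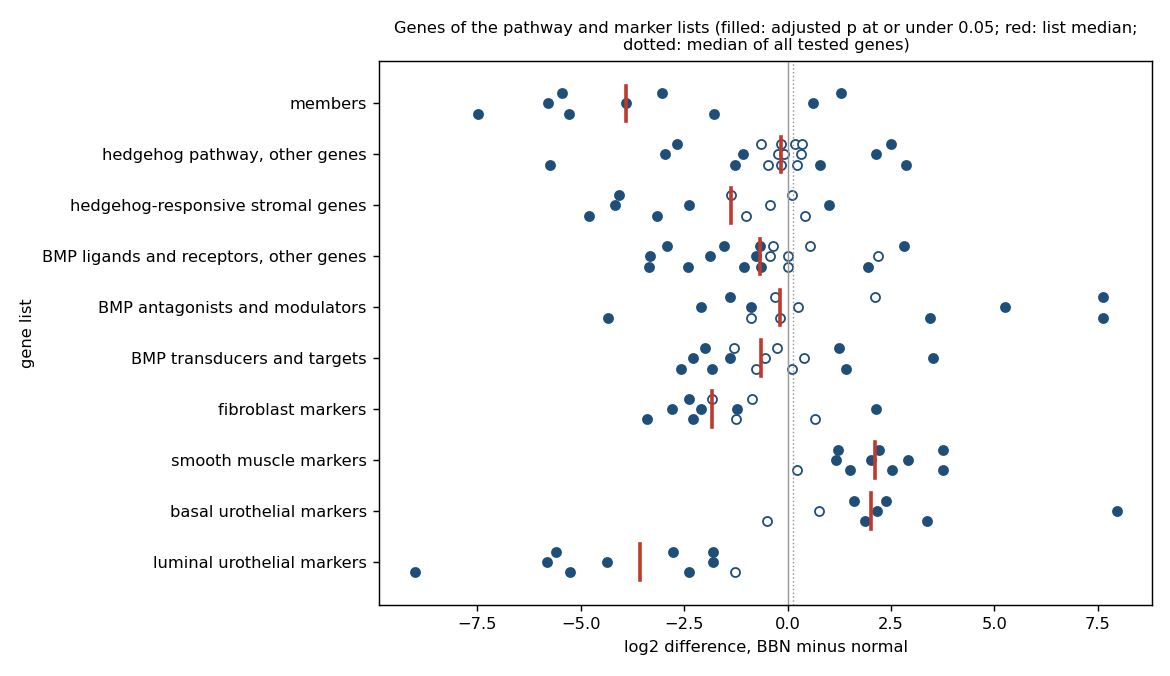
Log2 difference between BBN and normal bladders for each tested gene of the fixed lists (horizontal axis), 1 line per list; filled points passed limma at an adjusted p of 0.05, red bars are list medians and the dotted line is the median of all tested genes (0.13). The members (median -3.92), the hedgehog-responsive stromal genes (-1.38) and the fibroblast markers (-1.83) lie mostly left of 0, and the smooth muscle markers (2.11) right of it.

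Further BMP ligands and receptors fell more often than they rose, 10 of 18 against 2, with a median of -0.66. In all 66.7% passed, beside 42.7% of all genes. The ligands Bmp2, Bmp3 and Bmp7 fell by 3.33, 3.35 and 2.91 (limma adjusted p = 6.88e-05, 0.000398 and 0.00283). Bmp8b fell by 2.41 to a level measured on no BBN array, at least 2.01-fold lower. Gdf5, a ligand best known from joints, passed as higher with BBN (limma adjusted p = 0.000422). Only 1 of 3 normal arrays measured Gdf5 above background, so no size is given. The type II receptor Bmpr2 fell by 0.64. The type I receptors Bmpr1a and Bmpr1b differed by -0.43 and 0.01 and did not pass.

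BMP antagonists held the largest rises of the 5 pathway lists. Of 13 tested, 4 rose and 4 fell (61.5%, beside 42.7% of all genes), with a median of -0.18. Grem1, Fst and Bmper, secreted proteins that bind BMP ligands or, for Fst, also activins, were not measured on any normal array. Grem1 was well above background on all 19 BBN arrays and at least 44.4-fold higher (measured means -7.53 and 0.08, limma adjusted p = 8.03e-07). Fst was likewise measured on all 19 and at least 48.7-fold higher. Bmper was measured on 14 and passed as higher (limma adjusted p = 0.000127), but with the other BBN arrays not measured no bound is given. Nog, which encodes noggin, rose by 3.43, whereas Nbl1, another secreted antagonist, fell by 2.09.

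Of the transducers and targets of BMP signals, 3 of 14 rose and 5 fell (57.1%, beside 42.7% of all genes), with a median of -0.65. The target genes Id2 and Id3 fell by 1.82 and 2.01, and the inhibitory Smad6, itself a target, by 1.40. Id1 differed by -0.76 and did not pass (limma adjusted p = 0.0938). Smad1, a signal carrier, rose by 1.23, and Smad9 fell by 2.28, with 1 of 19 BBN arrays above background. Dlx5, a homeobox gene, passed as higher (limma adjusted p = 0.00314). It was not measured in normal bladders and was above background on 11 of 19 BBN arrays, so no size is given. In no comparison among the BBN groups did a gene of these 5 pathway lists pass.

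Promoters are shown for the 3 members with the largest falls in the promoter table used, taken from RefSeq (GRCm38.p6), which does not list Shh and Gli1. Each is the 250 bases before the start of the gene, on the gene's strand. Capitals mark the core of the Gli binding motif, CCACCCA or its reverse complement TGGGTGG, searched on both strands. The positions are chr9:75775115-75775364 on the + strand for Bmp5, chr8:80058009-80058258 on the - strand for Hhip and chr14:46390670-46390919 on the - strand for Bmp4.
Bmp5: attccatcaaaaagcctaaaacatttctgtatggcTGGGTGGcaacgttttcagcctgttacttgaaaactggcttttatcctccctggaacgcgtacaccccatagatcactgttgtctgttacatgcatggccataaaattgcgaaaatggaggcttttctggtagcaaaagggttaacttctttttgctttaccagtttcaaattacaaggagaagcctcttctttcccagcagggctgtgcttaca
Hhip: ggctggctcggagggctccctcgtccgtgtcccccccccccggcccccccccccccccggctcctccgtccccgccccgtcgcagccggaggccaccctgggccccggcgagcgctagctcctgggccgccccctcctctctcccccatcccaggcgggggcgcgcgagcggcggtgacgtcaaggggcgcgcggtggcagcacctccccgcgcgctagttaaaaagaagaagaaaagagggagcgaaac
Bmp4: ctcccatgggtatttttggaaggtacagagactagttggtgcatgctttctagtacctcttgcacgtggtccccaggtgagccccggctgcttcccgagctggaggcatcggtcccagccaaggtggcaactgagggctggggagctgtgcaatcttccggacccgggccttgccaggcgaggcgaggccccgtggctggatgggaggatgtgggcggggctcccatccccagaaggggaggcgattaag
The core stood in 1 of the 7 members in that table, Bmp5, where it begins 215 bases before the start, and in 9.29% of all 27025 promoters. The longer consensus GACCACCCA, which contains the core, was in 0 of the 7 and in 0.255% of all. Of the 6 stromal response genes in the table, Hsd11b1 alone held the core, 82 bases before its start.

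Among the BBN groups the design asks whether mutant Trp53, the cell type in which it was activated, or the allele changes these genes. In 7 such comparisons with limma, 0 of 9 members passed. The mutants of the Krt5 driver were set against Krt5-Cre (0.0115% of all tested genes passed), and those of the Upk2 driver against Upk2-Cre (0.00575%). Mutants of the drivers were set against each other (0.00575%), and the mutant effects of the drivers were compared (0%). R270H was set against R172H, Trp53 het against the Cre controls, and activated mutants against the other BBN groups (0% in each). At an unadjusted p under 0.05, 836, 1094, 922, 578, 1708, 840 and 1373 genes passed in that order, with Bmp5 and Smo the members among them, each in 1 comparison.

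Shh did not pass under either driver. Krt5 mutants averaged -2.76 against -0.74 in Krt5-Cre, a difference of -2.02 (95% interval -4.88 to 0.84, limma adjusted p = 1.0). Over the alternatives it ran from -3.03 to -0.91, and was -1.22 without Krt5-Cre R270H replicate 3. Upk2 mutants averaged -1.10 against -3.10 in Upk2-Cre, a difference of 2.00 (95% interval -0.99 to 5.0). The driver difference was -4.02 (SE 1.96, limma unadjusted p = 0.0560, adjusted p = 0.998), with a 95% interval of -8.16 to 0.12. Over the alternatives it ran from -5.90 to -1.07, the latter in the deposited table. The Upk2 value rested on array 1 of Upk2-Cre, at -4.98 and not well above background: without it the Upk2 difference was 0.13, and without array 2 it was 3.88.

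In the other comparisons Shh was 1.67 lower in Krt5 than in Upk2 mutants (95% interval of the difference -3.78 to 0.45) and 1.44 higher in R270H than in R172H (-0.68 to 3.56). Trp53 het was 1.34 below the Cre controls (-4.06 to 1.38), and the activated mutants were 0.44 above the other BBN groups (-1.29 to 2.17). Each of these Shh differences includes signals not well above background and is a fitted value. Hhip, the member next in scatter (SD 1.82 over BBN arrays), did not pass in either Krt5 mutants against Krt5-Cre or R270H against R172H (unadjusted limma p of 0.117 and 0.0932). It was above background on 0 of 4 Krt5-Cre R172H and 1 of 3 Upk2-Cre R172H arrays, so no size is given. For Bmp5 the fit gave an unadjusted limma p of 0.0232 (adjusted p = 0.948) for Krt5 mutants against Krt5-Cre, but no mutant array of that driver measured Bmp5 above background, so no size is given. Smo was 0.42 lower in R270H than in R172H (limma unadjusted p = 0.0396, adjusted p = 0.478). Bmp4 was 1.0 higher in R270H (limma unadjusted p = 0.0725), and Gli1 differed by 0.10.

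**Figure D4:**
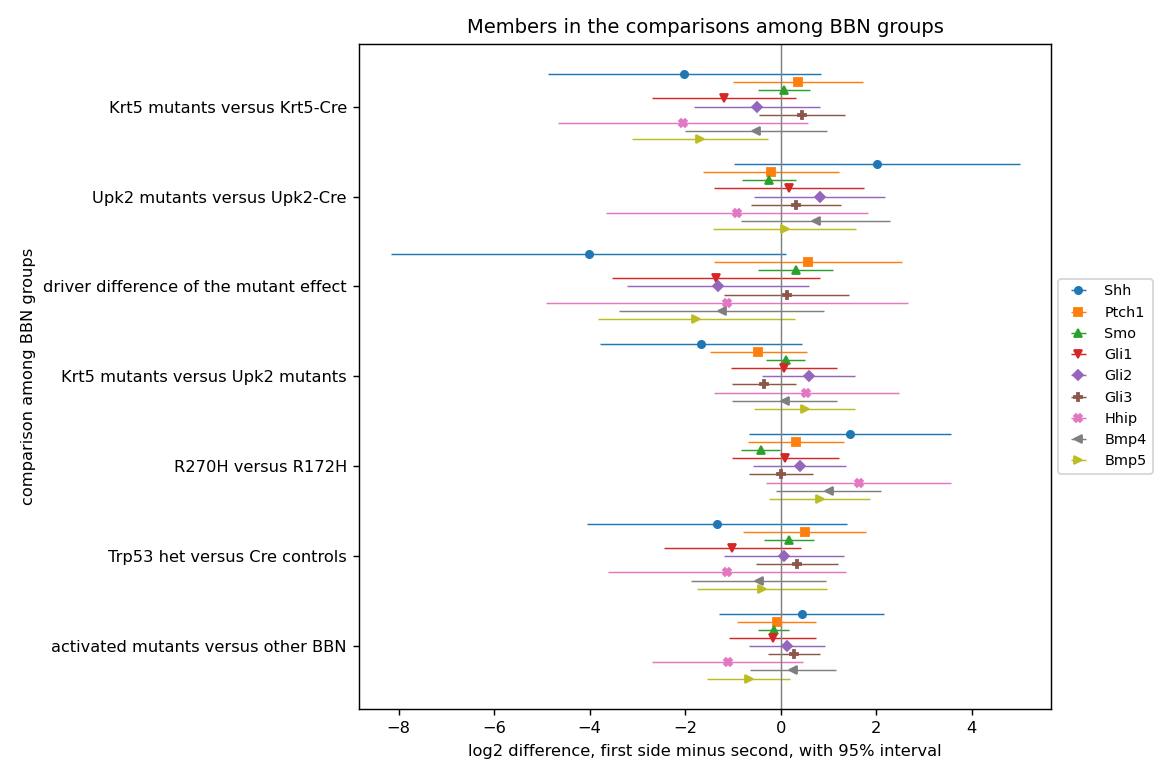
Log2 difference of each member (symbols, with 95% intervals) in the 7 comparisons among BBN groups; the first side of each name minus the second. The intervals of Shh are the widest of the members, and its driver difference of -4.02 reaches from -8.16 to 0.12; points of Gli2, Hhip and Bmp5 rest largely on values not well above background.

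The scatter of Shh across BBN bladders was set against the other 8 members over 17 bladders, with arrays of 1 animal code averaged. The limma fits above instead counted each array as a sample. The 2 averaged Upk2-Cre arrays had Shh at -4.98 and -1.22 and differed in Xist and Y-linked signal, so they may not be 1 animal. All values of a bladder share its array and its scaling. Bmp4 was higher where Shh was higher (Pearson r = 0.71, permutation p = 0.00118, adjusted over 8 relations 0.00944; Spearman rho = 0.79, adjusted permutation p = 0.00192). Without the 2 bladders farthest from the Shh median r was 0.68, and within the scanners it was 0.71 (11 arrays) and 0.63 (8 arrays). Over the 12 bladders with Shh well above background, a choice made after seeing the data, r was 0.59, and the adjusted permutation p was 0.0663. The marker lists ran along as well, in relations chosen after seeing the data: the mean level of smooth muscle markers correlated with Bmp4 at r = 0.84 and with Shh at 0.67, and that of fibroblast markers at 0.79 and 0.53 (permutation p = 3e-05, 0.00336, 0.0002 and 0.0275; rho 0.70, 0.65, 0.69 and 0.51; adjusted over 6 relations 0.00018, 0.00504, 0.0004 and 0.0275). Without the 2 bladders farthest in the marker level these r were 0.68, 0.56, 0.60 and 0.35, and their part in the relation of Shh and Bmp4 was not tested. Within the scanners smooth muscle markers and Shh gave r of 0.83 and 0.18, and fibroblast markers and Shh 0.50 and 0.84.

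Smo ran against Shh (r = -0.62, adjusted permutation p = 0.0212; rho = -0.67, adjusted permutation p = 0.0182). Within the scanners r was -0.59 and -0.80, and -0.79 without the 2 farthest bladders. The relation of Smo did not pass with quantile normalization (r = -0.44, adjusted permutation p = 0.186) or without the 8 BBN arrays against their sex label (r = -0.62, adjusted permutation p = 0.0814). The direct readouts of the pathway did not pass: Gli1 gave r = 0.37 and Hhip r = 0.46, with adjusted permutation p of 0.231 and 0.164. Gli2, Bmp5, Ptch1 and Gli3 gave 0.43, 0.30, 0.21 and -0.30, with adjusted permutation p from 0.164 to 0.423. Gli2, Hhip and Bmp5 were above background on 5, 7 and 2 of the 19 BBN arrays.

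**Figure D5:**
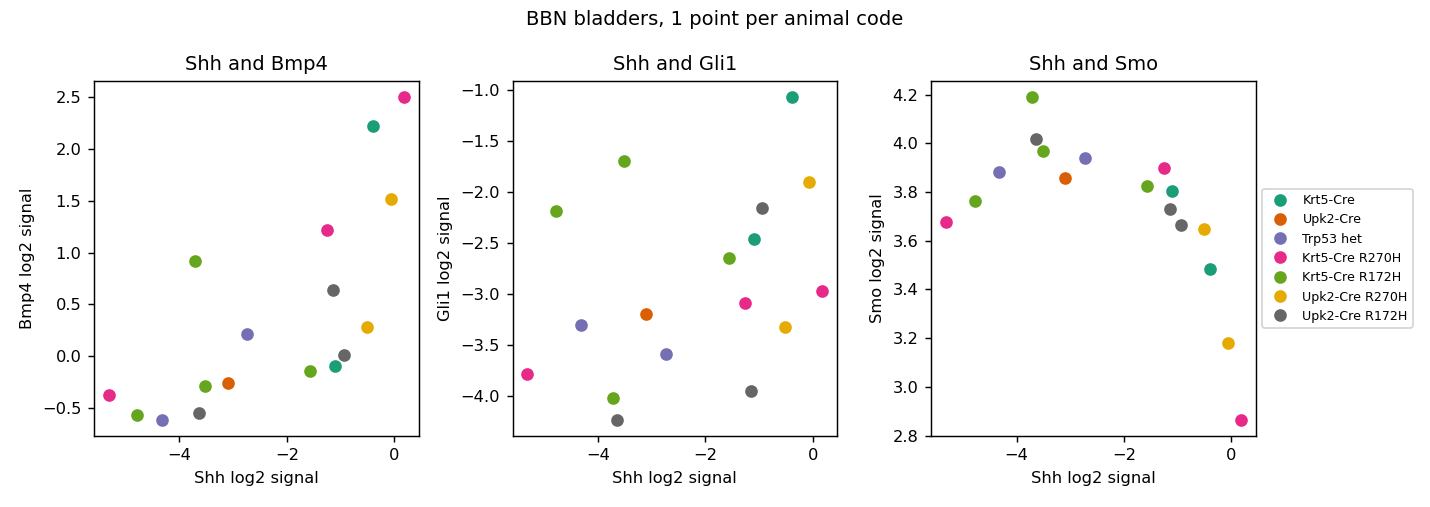
Level of Bmp4, Gli1 and Smo (vertical, log2 signal relative to the array's 75th percentile) against Shh (horizontal) in 17 BBN bladders, coloured by group. Bmp4 is higher where Shh is higher (r = 0.71), Smo is lower (r = -0.62), and Gli1 shows r = 0.37.

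For the 6 members above background on at least 10 BBN arrays, the genes of most similar pattern over the 17 bladders were read out of 13724, as a description. Shh lay closest to Sema3a (r = 0.88), a secreted axon guidance protein, and to Cd55b (0.87) and Cd55 (0.84), regulators of complement. Bmp4 lay closest to Il6st (0.97), the shared receptor subunit of the interleukin 6 family, then Cers4 and Nfasc (both 0.94). Gli3 ran with Ccnd1 (0.94), Paxip1 (0.92) and Hmga2 (0.89), and Smo with Pcnx3 (0.91), Hmgn1 (0.90) and Ythdf2 (0.89). Gli1 had Phyh (0.83), Slc16a9 (0.75) and Arhgap24 (0.75), and Ptch1 had Itga10 (0.88), Gpr180 (0.82) and Ppm1f (0.82). One in 100 genes of the pool exceeded 0.70 for Shh, 0.84 for Bmp4 and 0.54 for Gli1. Cd55 and Cd55b are close copies, and their probes may share signal.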

How the data were processed

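The 22 arrays were read out as spot intensities, background-subtracted by Agilent's Feature Extraction software (11.0.1.1 per the file headers, 9.1 per the submitters' processing notes). The deposited normalized table holds log2 values scaled between arrays by the authors, in which dim or flagged spots are empty, by steps not stated in the labels or headers. From the processed signals, log2 values minus each array's 75th percentile were computed. Flagged spots (53 to 301 per array) were left out, spots of a probe averaged, and the brightest of a gene's probes used. Of 56605 probes, 32989 carried 1 symbol (RefSeq, GRCm38.p6), 0 several and 23616 none.

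limma 3.58.1 (R 4.3.3) fitted 8 group means over all 22 arrays, with Benjamini-Hochberg adjustment over 17400 genes in each comparison; a flagged value removed 17 genes. Correlations used 100000 permutations (Python 3.11.15, numpy 2.4.6, scipy 1.17.1). The members and lists were chosen with earlier results of these data known. Named are the 9 members, up to 6 genes of smallest p per pathway list, and the 3 genes most like a member. Sufu, Id1, Bmpr1a, Bmpr1b, Pdgfra, Dcn and S100a4 were named after their values were seen. A further gene that this rule takes is not reported here. The fit was tested on simulated data. The number of arrays limits the precision.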

Additional observations from a re-analysis of the deposited data

How the results depend on the processing

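Against normal bladder, 7 to 9 of 9 members passed with 1 array left out in turn, 3 of the 3 that the strict filter (above background on all arrays) leaves, and 6 to 9 under the other alternatives, all in the direction reported. Of the 63 pairs of member and group, 41 to 57 passed with 1 array left out, 32 in the deposited table (which lacks values of Gli2, Hhip and Bmp5) and 14 with the strict filter. Over all genes 7431 passed in the main setting, 4586 with the strict filter, 13106 with array weights and 5058 to 8140 with 1 array left out, the lowest without normal replicate 3. Quantile normalization moved the median of all genes from 0.13 to -0.01 and testing without the filter moved it to 0.49. Ptch1 (-0.57, adjusted p = 0.243) and Gli2 did not pass with normexp. Among BBN groups, 0 members passed under any of 38 alternatives, while the genes called ranged from 0 to 134, the highest for R270H against R172H without Krt5-Cre R270H replicate 3 and, with slide as a fixed block, 54 to 78 in 4 comparisons. The Shh difference of Trp53 het from the Cre controls turned to 0.67 in the deposited table and 0.13 without the 8 BBN arrays against their sex label; that of the activated mutants turned to -0.60 in the deposited table and ranged from -0.19 to 1.06 with 1 array left out (-0.19 without Upk2-Cre replicate 1). Relations of Shh passing were 2 of 8, 1 with quantile normalization, 4 with each array its own sample (Gli1 and Hhip added), 1 without arrays against the sex label and 1 over bladders with Shh above background, an alternative chosen after seeing the data; the causes were not tested. Same-numbered replicates did not deviate together (median r 0.03 over 66 pairs, -0.01 for 144 others), and with the replicate number as a block 9 of 9 members and 52 of the 63 pairs passed against normal, 0 among BBN groups, and the Shh driver difference was -3.68 (-2.03 with normexp, -1.07 in the deposited table, -5.90 to -2.15 with 1 array left out). Correlations in the deposited table were not run, as Shh is empty there on dim arrays. Levels near background limit Gli2, Hhip and Bmp5.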

Other observations

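Shh, known as a gene of basal urothelium, fell in BBN bladders while 6 of 8 basal urothelial markers rose. Over the 17 BBN bladders the mean level of those markers ran against Shh (r = -0.62, rho = -0.66, permutation p = 0.00574, adjusted over 6 relations 0.00689) and against Bmp4 (r = -0.80, rho = -0.70, permutation p = 0.00016, adjusted 0.0004). Without the 2 bladders farthest in the marker level r was -0.44 for Shh and -0.68 for Bmp4, and within the scanners it was -0.67 and -0.68 for Shh. These relations were computed after seeing the data.

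Over the 12 bladders with Shh well above background, Smo and Shh were ranked nearly in reverse (rho = -0.99, adjusted permutation p = 8e-05; r = -0.83, adjusted permutation p = 0.00912, and -0.77 without the 2 farthest). The choice of these bladders was made after seeing the data.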
